A study of Homo sapiens with 10 samples.

Results

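Integrins are the receptors that hold cells to the matrix around them, and laminins are the main adhesive proteins of the basement membrane. Transcripts of the subunit genes of both families were compared in a pair of human liver tumour lines in which the miR-17 microRNA family was blocked or not. The set took in every gene symbol of the count files that reads ITGA or ITGB plus a number, the lettered genes ITGAV, ITGAL, ITGAM, ITGAX and ITGAE, and every LAMA, LAMB or LAMC plus a number. That gave 36 of 19215 symbols, namely 16 integrin alpha, 8 integrin beta and 12 laminin genes. ITGA2B and ITGAD fell outside that naming.

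Poly(A) RNA was sequenced from SK-Hep1 cells carrying a decoy against the miR-17 family (SK-Hep1 miR-17 TuD, 2 libraries), SK-Hep1 cells with the negative control decoy (SK-Hep1 NC TuD, 2 libraries), HepG2 cells with the miR-17 decoy (HepG2 miR-17 TuD, 3 libraries) and HepG2 cells with the control decoy (HepG2 NC TuD, 3 libraries). A TuD, or tough decoy, is an RNA hairpin that binds a microRNA and blocks it. The microRNAs themselves are not read in poly(A) RNA, so the block was not measured here. In all 4 groups the decoy came in viral particles at a multiplicity of infection of 5, with 10 µg/mL polybrene over 48 h, and colonies that survived 2 weeks of puromycin (1 µg/mL, with 10% serum) were pooled. Each group is thus 1 stable line, and no label calls its replicates separate cultures. The p-values therefore measure the spread between these libraries, which may be technical, and decoy and history of the stable line cannot be told apart.

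The libraries held 12884225 to 15076431 gene counts, and levels are given as counts-per-million (CPM) with library sizes scaled by the TMM method. Hepatocyte markers summed to 68.1 to 71.1 CPM in SK-Hep1 miR-17 TuD and 73.5 to 81.1 CPM in SK-Hep1 NC TuD, against 21778 to 22779 CPM in HepG2 miR-17 TuD and 28588 to 29415 CPM in HepG2 NC TuD. SK-Hep1 has a reported endothelial origin. The 6 endothelial markers summed to 0.420 to 0.672 CPM in SK-Hep1 miR-17 TuD and 0.703 to 1.18 CPM in SK-Hep1 NC TuD. In HepG2 miR-17 TuD they summed to 3.87 to 5.60 CPM and in HepG2 NC TuD to 4.96 to 5.88 CPM. Of these genes, PECAM1 and KDR had 0 counts in the 4 SK-Hep1 libraries, and CDH5 had at most 1. TIE1 had 5 to 8 counts per library in SK-Hep1 miR-17 TuD and 6 to 16 in SK-Hep1 NC TuD. Both lines are tumour lines and so stand only in part for the tissue they came from. As a measure of traces of the other line, VIM, abundant in SK-Hep1, stood in HepG2 libraries at 0.00682% to 0.0335% of its SK-Hep1 level, and ALB, abundant in HepG2, at no more than 0.0547% of its HepG2 level in SK-Hep1.

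An integrin is a pair of 1 alpha and 1 beta chain, and the pairing sets what it binds. ITGB1 is the partner of most alpha chains. With ITGA1 or ITGA2 it forms collagen receptors, with ITGA3, ITGA6 or ITGA7 laminin receptors, and with ITGA5 the main fibronectin receptor. ITGA6 with ITGB4 anchors epithelial cells in hemidesmosomes. A laminin is a trimer of 1 alpha, 1 beta and 1 gamma chain. LAMA3 and LAMB3 are chains of the laminin of skin and other epithelia that lies under hemidesmosomes, while LAMA5 joins LAMB1 or LAMB2 and LAMC1 in most adult basement membranes.

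The blocked microRNAs share the seed that pairs with target transcripts, and they are shown because it defines the sites sought in these genes. In the mature sequences from RefSeq (GRCh38.p14), the capitals mark the seed, bases 2 to 8.
hsa-miR-17-5p, chr13:91350618-91350640 (+): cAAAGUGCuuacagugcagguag
hsa-miR-20a-5p, chr13:91351072-91351094 (+): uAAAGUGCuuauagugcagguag
hsa-miR-93-5p, chr7:100093815-100093837 (-): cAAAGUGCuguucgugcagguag
hsa-miR-106b-5p, chr7:100094043-100094063 (-): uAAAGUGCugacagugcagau

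The 3′ untranslated regions (3′UTRs) of GENCODE 29 were searched on the transcript strand for GCACTTTA (8mer), GCACTTT (7mer-m8) and CACTTTA (7mer-A1). An 8mer contains both shorter motifs, and each position was counted once, under the longest. Of the 36 genes, 2 had an 8mer (5.56%) and 8 had an 8mer or a 7mer-m8 (22.2%), against 4.55% and 21.7% of the 17845 genes searched. Any of the 3 kinds stood in 11 of 36 (30.6%), against 27.9% of all genes searched. A site for this seed was thus about as frequent here as in genes at large. The sites below belong to members described in the results, with the match in capitals and its GRCh38 position and strand.
ITGB8, 8mer, chr7:20410228-20410235 (+): ctagtgtcgttgtaGCACTTTActgt
LAMA3, 8mer, chr18:23954987-23954994 (+): aaatatattttaaaGCACTTTAagaa
LAMC1, 7mer-m8, chr1:183143991-183143997 (+): cgctatcgagttcctGCACTTTgtga
ITGA1, 7mer-m8, chr5:52954409-52954415 (+): ctgaaccataagtgtGCACTTTtaaa
ITGA2, 7mer-m8, chr5:53093607-53093613 (+): ggcagtatttctcaaGCACTTTtaag
ITGB1, 7mer-A1, chr10:32900896-32900902 (-): taacttttatgccttCACTTTAcaaa

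The LAMA3 8mer lies in the 3′UTR of only 2 of its 10 annotated coding transcripts, and counts per gene do not show which transcript was read. The ITGB1 site lies in 3 of 15. A match is a description of these letters and does not show that the microRNA acts there.

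Of the 36 genes, 30 had enough counts to be tested. The other 6 were at or near 0. ITGA8, whose product binds matrix ligands with ITGB1, had 0 counts in all 10 libraries, which at 3 counts allows up to 0.197 to 0.239 CPM per library. ITGB6, an epithelial partner of ITGAV, had 5 and 10 counts in SK-Hep1 miR-17 TuD, 8 and 7 in SK-Hep1 NC TuD and 0 in every HepG2 library. LAMB4 had 8 counts in all in SK-Hep1 miR-17 TuD, 4 in SK-Hep1 NC TuD, 17 in HepG2 miR-17 TuD and 6 in HepG2 NC TuD. LAMA4 had 1 to 3 counts per group. The myeloid integrin genes ITGAM and ITGAX had at most 11 and 4 counts per group.

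**Figure D1:**
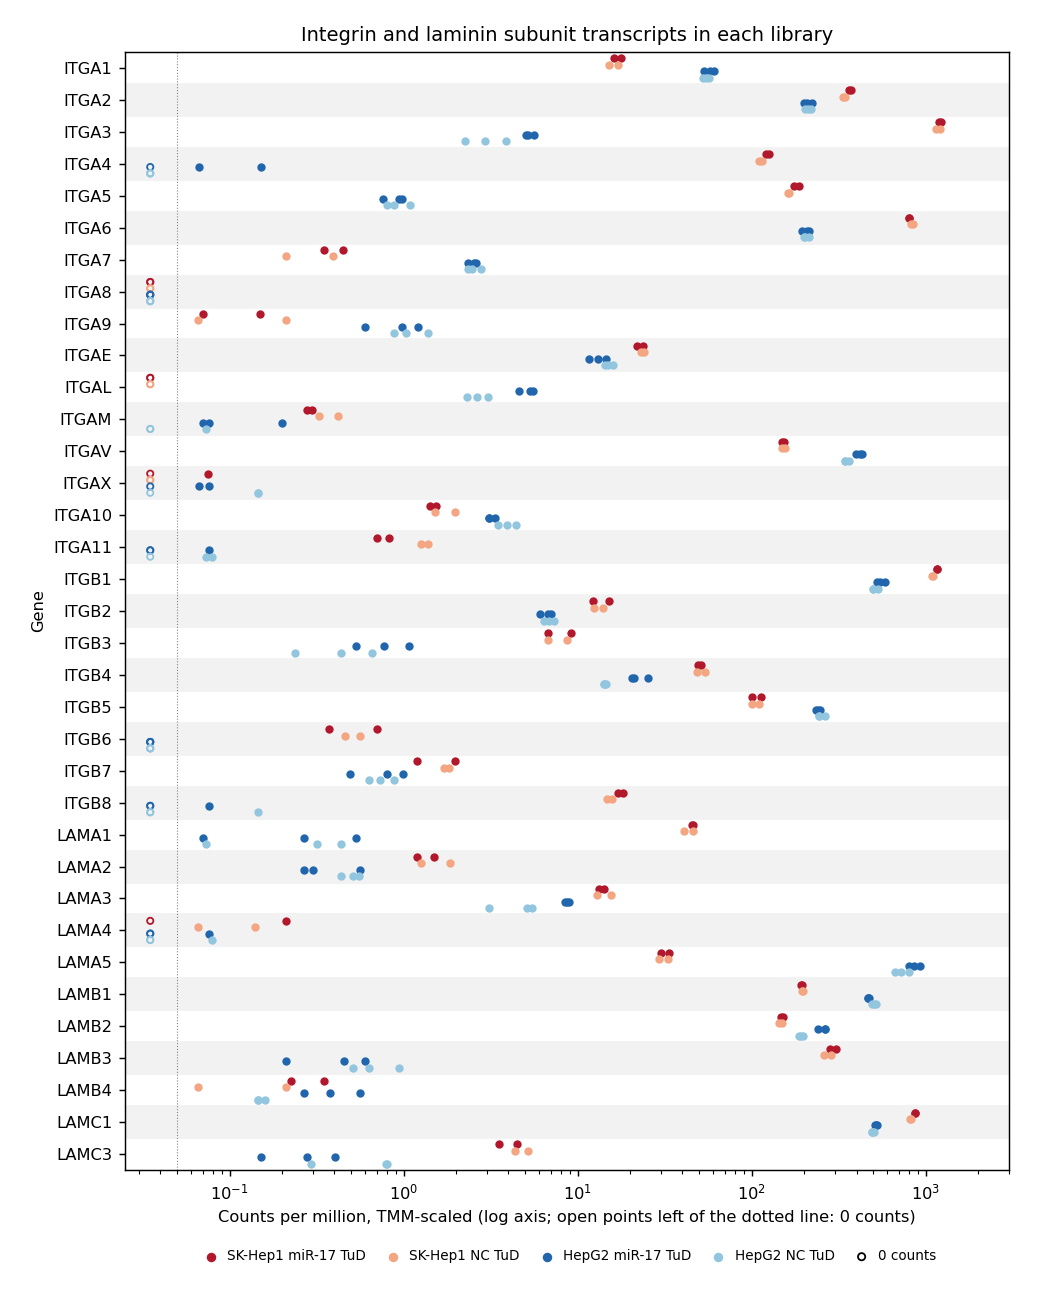
TMM-scaled CPM (log axis) of integrin and laminin genes, 1 point per library, for SK-Hep1 miR-17 TuD, SK-Hep1 NC TuD, HepG2 miR-17 TuD and HepG2 NC TuD, with open points left of the dotted line for 0 counts. The lines lie far apart for ITGA3, ITGA4, ITGA5, ITGB8, LAMA1, LAMB3 and LAMA5, while the arms of 1 line mostly lie close together.

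In HepG2 the miR-17 decoy went with more transcript of several laminin chains and of some chains of their receptors. The laminin receptor chains ITGA3 and ITGB4 and the laminin chains LAMA3, LAMA5 and LAMB2 were higher in HepG2 miR-17 TuD than in HepG2 NC TuD, as were ITGAV, ITGAL and, by a small margin, ITGB1, while LAMB1 was slightly lower. Of 30 tested genes, 9 were called at an adjusted p below 0.05 in edgeR's quasi-likelihood test, 8 higher and 1 lower. Over all 13349 genes tested, 19.3% were called, 10.7% higher and 8.58% lower. The median log2 change of the 30 was 0.01, beside 0.00 for all genes. Only 21 of the 30 had enough counts in HepG2 alone, and the 9 called are among them. The rest had few counts there, so that median is in part counting error. Beside these calls, the hepatocyte markers given above summed lower in HepG2 miR-17 TuD. Of these, ALB, AFP, APOA2 and TTR were lower there, APOA1 overlapped between the arms and SERPINA1 was higher. The 5 epithelial markers summed to 3029 to 3325 CPM in HepG2 miR-17 TuD and 2733 to 2829 CPM in HepG2 NC TuD. The part of either set of markers in the results was not tested.

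Among laminin-binding alpha chains, ITGA3 (chr17:50055968-50090481, + strand, GRCh38), an epithelial receptor chain, had 5.04, 5.22 and 5.61 CPM in HepG2 miR-17 TuD, against 2.92, 3.90 and 2.26 CPM in HepG2 NC TuD. The arms did not overlap, and the log2 fold change was 0.81 ± 0.15 (SE; adjusted p = 5.54e-05). In bulk RNA, more cells with a transcript and more transcript per cell cannot be told apart. These levels were low beside the 1146 to 1223 CPM of SK-Hep1. Traces of SK-Hep1 RNA at the VIM share would account for 9.73 of the 224 ITGA3 counts in HepG2 miR-17 TuD and 10.5 of the 120 in HepG2 NC TuD. ITGA6, the more abundant laminin receptor chain of HepG2, had 207, 195 and 213 CPM in HepG2 miR-17 TuD, against 199.96, 213 and 201 CPM in HepG2 NC TuD, and its log2 change was 0.00 ± 0.04. ITGA7, mainly a muscle chain, was at -0.01 ± 0.22.

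ITGB4 (chr17:75721328-75757818, + strand), whose long cytoplasmic tail binds the hemidesmosome, had 21.1, 25.4 and 20.6 CPM in HepG2 miR-17 TuD, against 14.6, 14.2 and 14.1 CPM in HepG2 NC TuD. Each decoy library lay above each control library, with a log2 change of 0.65 ± 0.09 (adjusted p = 7.34e-08). ITGB1 (chr10:32900319-33005792, - strand) had 549, 526 and 581 CPM in HepG2 miR-17 TuD, against 496, 531 and 496 CPM in HepG2 NC TuD. Here the arms overlapped, and the change was 0.12 ± 0.04 (adjusted p = 0.0101). Its call was lost without HepG2 miR-17 TuD replicate 3 (adjusted p = 0.0891) or without HepG2 NC TuD replicate 1 (adjusted p = 0.075). The call was also lost with replicate number as a block (adjusted p = 0.0646) and with limma (adjusted p = 0.0513). ITGB5, a partner of ITGAV, was at -0.06 ± 0.04 (adjusted p = 0.34).

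ITGAV (chr2:186590065-186680901, + strand), the alpha chain of vitronectin and latent TGF-beta receptors, had 416, 395 and 431 CPM in HepG2 miR-17 TuD, against 342, 364 and 342 CPM in HepG2 NC TuD. The arms did not overlap, and the log2 change was 0.25 ± 0.04 (adjusted p = 8.62e-07). Of the collagen receptor chains none was called. ITGA1 was at 0.06 ± 0.06 and ITGA2 at -0.01 ± 0.04, and both carry a 7mer-m8. ITGA10, mainly a cartilage chain, was at -0.32 ± 0.18 (adjusted p = 0.241), and ITGA11 had too few counts in HepG2 to be read.

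ITGAL (chr16:30472658-30523185, + strand), the alpha chain of the leukocyte integrin LFA-1, had 5.53, 5.35 and 4.63 CPM in HepG2 miR-17 TuD, against 2.63, 2.31 and 3.06 CPM in HepG2 NC TuD. All decoy libraries were above all control libraries, and the log2 change was 0.95 ± 0.18 (adjusted p = 8.51e-05), which lost its call with limma on the deposited log2 values (adjusted p = 0.0574). The pan-leukocyte gene PTPRC and the T cell gene CD3E had 0 counts in all HepG2 libraries. The 5 leukocyte markers together summed to 2.58 to 3.78 CPM in HepG2 miR-17 TuD and 2.54 to 2.85 CPM in HepG2 NC TuD, most of it CD14. ITGB2, the beta partner of ITGAL, was at -0.05 ± 0.14 (adjusted p = 0.859). The libraries do not record strand, and annotated antisense transcripts overlap 294 and 204 exon bases of ITGAL, whose reads cannot be told apart from its own. ITGAE, the partner of ITGB7 on mucosal lymphocytes, was at -0.20 ± 0.10 (adjusted p = 0.148).

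Among laminin chains, LAMA3 (chr18:23689443-23956222, + strand) had 8.96, 8.63 and 8.42 CPM in HepG2 miR-17 TuD, against 5.47, 3.10 and 5.10 CPM in HepG2 NC TuD. The 3 decoy libraries stood close together and above the controls, of which replicate 2 was lowest, and the log2 change was 0.92 ± 0.15 (adjusted p = 2.39e-06). Its partner chain LAMB3 was near 0 in HepG2, with 18 counts in all in HepG2 miR-17 TuD and 28 in HepG2 NC TuD.

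LAMB2 (chr3:49121114-49133118, - strand), a beta chain of basement membranes, had 262, 262 and 241 CPM in HepG2 miR-17 TuD, against 192, 186 and 197 CPM in HepG2 NC TuD. The gap between the arms was wide beside the spread within them, at 0.41 ± 0.04 on the log2 scale (adjusted p = 4.61e-12). LAMB1 (chr7:107923799-108003255, - strand), the other common beta chain, went the other way, with 467, 468 and 471 CPM in HepG2 miR-17 TuD, against 493, 506 and 520 CPM in HepG2 NC TuD. That change was -0.11 ± 0.03 (adjusted p = 0.016). With CPM divided by exon length, LAMB2 made up 36.9% to 39.2% of beta chain transcript in HepG2 miR-17 TuD libraries and 29.7% to 30.8% in HepG2 NC TuD libraries. The small fall of LAMB1 lost its call when libraries were scaled by their totals only (adjusted p = 0.0986). The call was also lost with replicate number as a block (adjusted p = 0.0864), without HepG2 miR-17 TuD replicate 1 (adjusted p = 0.0724) or without HepG2 NC TuD replicate 3 (adjusted p = 0.0752).

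LAMA5 (chr20:62307955-62367312, - strand) made up 98.98% to 99.14% of the alpha chain transcript per length in HepG2 miR-17 TuD and 99.3% to 99.4% in HepG2 NC TuD. It had 859, 929 and 805 CPM in HepG2 miR-17 TuD, against 721, 666 and 799 CPM in HepG2 NC TuD. The arms did not overlap, but the lowest decoy library lay only just above the highest control library. The log2 change was 0.25 ± 0.06 (adjusted p = 0.0173), and the call was lost without HepG2 NC TuD replicate 1 (adjusted p = 0.0892) and with limma (adjusted p = 0.0545). LAMC1, the main gamma chain of HepG2, had 524, 512 and 519 CPM in HepG2 miR-17 TuD, against 493, 506 and 488 CPM in HepG2 NC TuD. Its arms did not overlap either, yet the change of 0.06 ± 0.03 did not pass (adjusted p = 0.191). The other tested genes had few counts in HepG2. ITGB3 had 34 counts in all in HepG2 miR-17 TuD and 18 in HepG2 NC TuD, at 0.82 ± 0.44 (adjusted p = 0.209). ITGA4, ITGA5, ITGA9, ITGA11, ITGB7, LAMA1, LAMA2 and LAMC3 had 0 to 44 counts per arm and were not called.

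**Figure D2:**
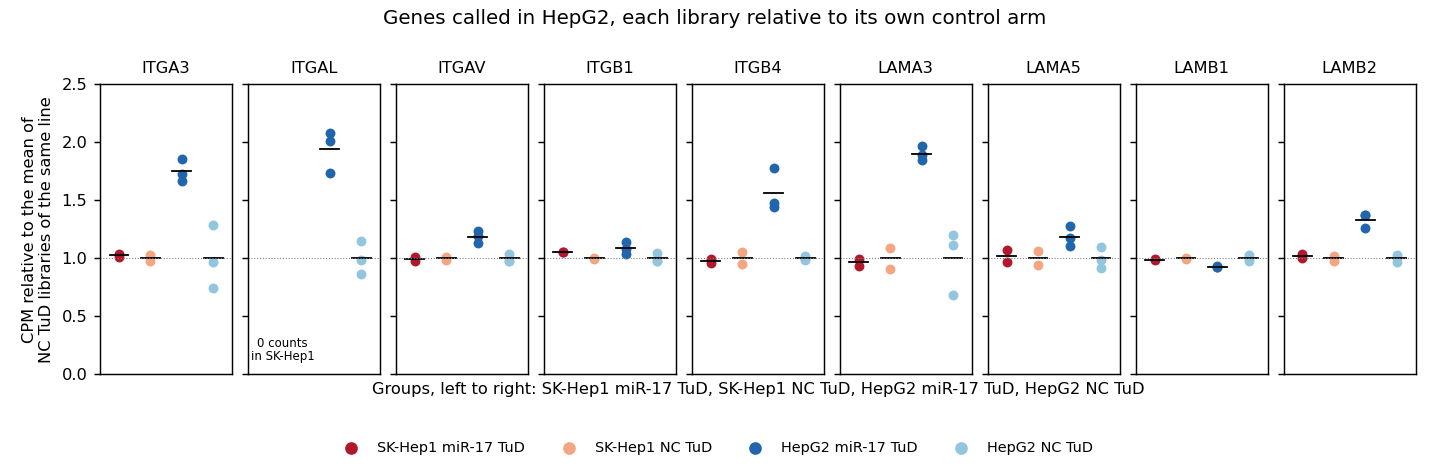
CPM of the 9 genes called in HepG2, each library divided by the mean of the NC TuD libraries of its own line, with groups from left to right SK-Hep1 miR-17 TuD, SK-Hep1 NC TuD, HepG2 miR-17 TuD and HepG2 NC TuD, points for libraries and lines for means. In HepG2 the decoy libraries of all but ITGB1 lie apart from the control libraries, in genes chosen for being called there. In SK-Hep1 the arms lie close to each other, though without overlap for ITGB1 and LAMB1, and ITGAL had 0 counts.

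Genes with and without a site for the blocked family were among those called. In HepG2, 3 of the 9 tested genes with any site were higher (LAMA3, ITGAL and ITGB1), as were 5 of the 21 without one (ITGA3, ITGAV, ITGB4, LAMA5 and LAMB2). Over all 13349 genes tested, with or without a site, 10.7% were higher in HepG2 miR-17 TuD. The share among all genes with a site is not given. The median log2 change of the members was 0.06 with a site and -0.01 without. Both sets hold genes with too few counts in HepG2 to be read. ITGB8, with its 8mer and further matches, could not be read in HepG2, with 1 count in the decoy arm and 2 in the control arm. In SK-Hep1 it had 18.3 and 17.01 CPM in SK-Hep1 miR-17 TuD, against 15.7 and 14.8 CPM in SK-Hep1 NC TuD. The arms did not overlap, and the change of 0.21 ± 0.12 did not pass (adjusted p = 0.659).

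In SK-Hep1 none of these genes passed the threshold. Of 30 tested genes 0 were called with edgeR and 0 with DESeq2, while 6 had an unadjusted p below 0.05 in edgeR. Over all genes, edgeR called 0.869% in SK-Hep1, 0.667% higher and 0.202% lower, and DESeq2 called 0.652%. At such shares 0 of 30 says little about these genes. ITGA5, the fibronectin receptor chain, had 188 and 176 CPM in SK-Hep1 miR-17 TuD, against 165 and 162 CPM in SK-Hep1 NC TuD, at 0.15 ± 0.05 (adjusted p = 0.246). Its arms did not overlap. ITGA2, ITGA4, LAMB3 and LAMC1 also had an unadjusted p under that limit, with log2 changes of 0.11, 0.13, 0.12 and 0.08. Fitted on the 4 SK-Hep1 libraries alone, 5 genes were called, all higher, among them LAMC1, with an adjusted p of 0.0368 for ITGA2 (0.12 ± 0.03), 0.0193 for ITGA5 (0.16 ± 0.04) and 0.0317 for ITGB1 (0.09 ± 0.02). That fit called 274 of 12139 genes.

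The responses of the lines were then compared directly. Of 30 tested genes, 5 had a smaller decoy response in SK-Hep1 than in HepG2 and 0 a larger one, where 3.75% of all genes were called, 1.24% larger and 2.51% smaller. They were ITGA3, ITGAV, ITGB4, LAMA3 and LAMB2, each of them higher with the decoy in HepG2. LAMB2 had 151 and 147 CPM in SK-Hep1 miR-17 TuD, against 149 and 143 CPM in SK-Hep1 NC TuD, and its response differed by -0.39 ± 0.07 (adjusted p = 6.76e-05). ITGB4 had 49.3 and 50.9 CPM in SK-Hep1 miR-17 TuD, against 54.0 and 48.6 CPM in SK-Hep1 NC TuD, and differed by -0.68 ± 0.12 (adjusted p = 8.02e-05). In SK-Hep1 both genes had overlapping arms.

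LAMA3 had 14.1 and 13.3 CPM in SK-Hep1 miR-17 TuD, against 15.5 and 12.9 CPM in SK-Hep1 NC TuD, with a difference of responses of -0.96 ± 0.20 (adjusted p = 0.000916). For ITGA3 the difference was -0.78 ± 0.16 (adjusted p = 0.00116), beside a change within SK-Hep1 of 0.04 ± 0.04. With limma on the deposited log2 values both calls were lost (adjusted p = 0.0896 for LAMA3 and 0.132 for ITGA3). For ITGAV it was -0.25 ± 0.06 (adjusted p = 0.0102), which was lost without SK-Hep1 NC TuD replicate 1 (adjusted p = 0.0796) or SK-Hep1 miR-17 TuD replicate 2 (adjusted p = 0.0986), and with limma (adjusted p = 0.0505). LAMA5, called in HepG2, had 30.02 and 33.3 CPM in SK-Hep1 miR-17 TuD, against 33.0 and 29.2 CPM in SK-Hep1 NC TuD, and its responses differed by -0.22 ± 0.15 (adjusted p = 0.581). This comparison and those within each line use the same libraries.

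**Figure D3:**
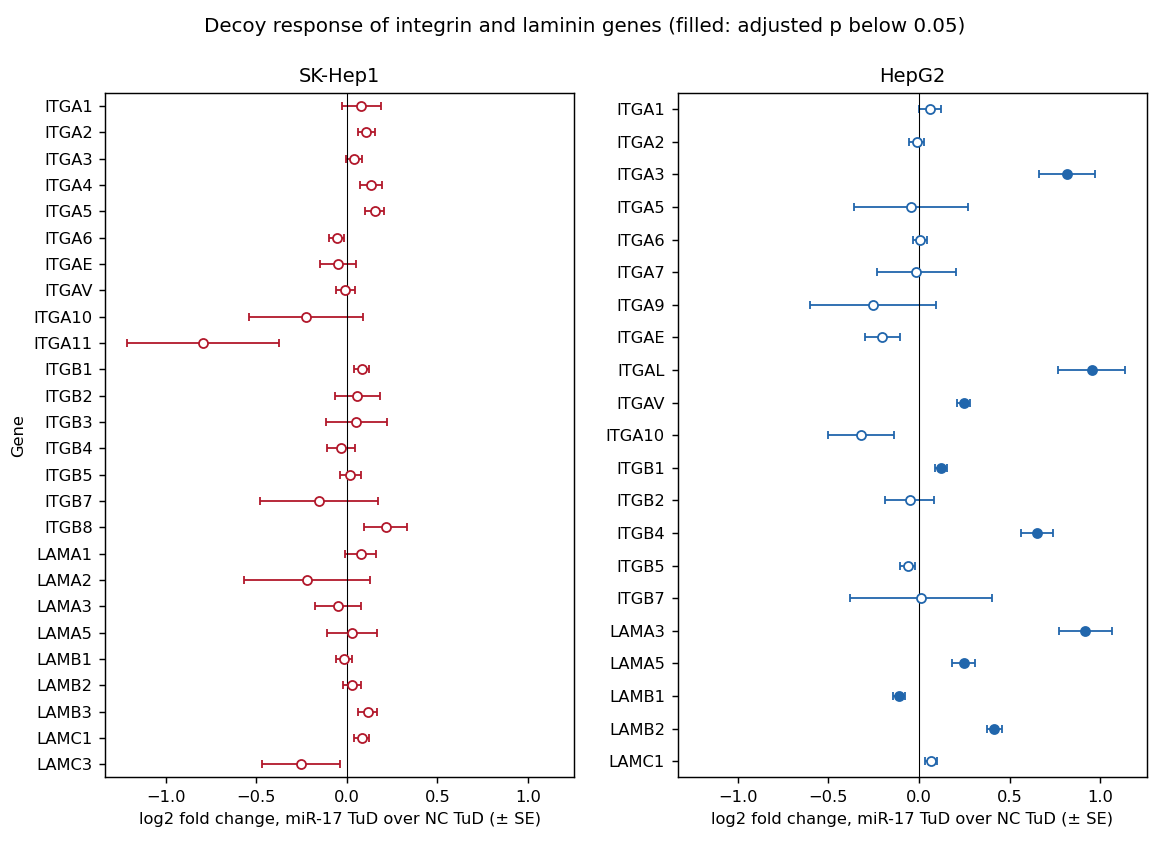
Log2 fold change of miR-17 TuD over NC TuD with its SE, in SK-Hep1 (left) and HepG2 (right), for genes with enough counts in that line alone, filled where the adjusted p was below 0.05. In SK-Hep1 all points are open, and in HepG2 the filled points are ITGA3, ITGAL, ITGAV, ITGB1, ITGB4, LAMA3, LAMA5 and LAMB2 above 0 and LAMB1 below it.

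The lines themselves differed in nearly all of these genes. SK-Hep1 had far more of ITGA3, ITGA4, ITGA5, ITGB8, LAMA1 and LAMB3, and HepG2 more of LAMA5, ITGAV, ITGA1, ITGB5 and LAMB1. In the NC TuD libraries all 30 tested genes were called, 20 higher and 10 lower in SK-Hep1, where 86.7% of all genes were called, 43.9% higher and 42.8% lower. In the miR-17 TuD libraries the same 30 were called with the same directions, where 87.3% of all genes were called, 44.1% higher and 43.1% lower. Of the 30 genes, 12 had passed the count filter through 1 line only, 9 through SK-Hep1 and 3 through HepG2. Among the 9 were ITGA4, ITGA11, ITGB3, ITGB8, LAMA1, LAMA2, LAMB3 and LAMC3, and the 3 were ITGA7, ITGA9 and ITGAL. These were tested because of their level in 1 line, so their calls between the lines are no independent result. Of the 18 with enough counts in each line alone, 11 were higher and 7 lower in SK-Hep1. The shares above are over all 13349 tested genes, including those that passed through 1 line only, so they are no direct measure for these 18.

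ITGA3 had 1146 and 1206 CPM in SK-Hep1 NC TuD, against 2.92, 3.90 and 2.26 CPM in HepG2 NC TuD, a log2 difference of 8.61 ± 0.07 (adjusted p = 9.07e-67). ITGA5 had 165 and 162 CPM in SK-Hep1 NC TuD, against 0.802, 0.875 and 1.09 CPM in HepG2 NC TuD, at 7.45 ± 0.11 (adjusted p = 2.19e-54). ITGA4, a receptor chain for VCAM1 and fibronectin, had 1632 and 1681 counts in SK-Hep1 NC TuD and 0 in all 3 HepG2 NC TuD libraries. Set against a floor of 3 counts over the group, it was at least 1500.1-fold higher in SK-Hep1 NC TuD.

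ITGA6 had 824 and 843 CPM in SK-Hep1 NC TuD, against 199.96, 213 and 201 CPM in HepG2 NC TuD, at 2.03 ± 0.04. ITGA2 was higher in SK-Hep1 NC TuD by 0.69 ± 0.04 and ITGAE by 0.64 ± 0.10. ITGAV had 154 and 150 CPM in SK-Hep1 NC TuD, against 342, 364 and 342 CPM in HepG2 NC TuD, at -1.20 ± 0.05. ITGA1 had 17.1 and 15.2 CPM in SK-Hep1 NC TuD, against 52.5, 56.9 and 54.5 CPM in HepG2 NC TuD, at -1.76 ± 0.08. Among collagen receptor chains, then, ITGA2 was higher and ITGA1 lower in SK-Hep1, and among chains that bind RGD ligands ITGA5 was higher and ITGAV lower.

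ITGAL had 0 counts in SK-Hep1, so that at 3 counts it was at least 26.3-fold lower in SK-Hep1 NC TuD than in HepG2 NC TuD. ITGA7 was lower in SK-Hep1 NC TuD by 3.01 on the log2 scale (-3.01 ± 0.39), ITGA9 by -2.94 ± 0.61 and ITGA10 by -1.19 ± 0.23, all at few counts. ITGA11, a fibroblast collagen receptor chain, had 39 counts in SK-Hep1 NC TuD and 2 in HepG2 NC TuD, a ratio of 26.5 with a 95% counting interval of 6.86 to 226. That interval covers counting error only.

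Per length, the order of alpha chains in SK-Hep1 NC TuD was ITGA3, ITGA6, ITGA2, ITGA5, ITGA4 and ITGAV, at 241 ± 8.74, 141 ± 2.31, 43.2 ± 0.744, 36.8 ± 0.417, 24.4 ± 0.656 and 20.1 ± 0.428 CPM per kilobase of exon (SD, n = 2). In HepG2 NC TuD it was ITGAV, ITGA6, ITGA2, ITGA1 and ITGAE, at 46.2 ± 1.63, 34.7 ± 1.17, 26.8 ± 1.08, 5.08 ± 0.205 and 3.91 ± 0.212 CPM per kilobase (SD, n = 3). Neighbours in these orders differed by more than the sum of their SDs. Summed over all alpha chains, SK-Hep1 NC TuD had 514 ± 8.42 and HepG2 NC TuD 119 ± 3.97 CPM per kilobase.

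Among beta chains, ITGB1 led in both lines, with 1092 and 1096 CPM in SK-Hep1 NC TuD, against 496, 531 and 496 CPM in HepG2 NC TuD, at 1.11 ± 0.04. Its level per length was 204 ± 0.436 CPM per kilobase in SK-Hep1 NC TuD and 94.8 ± 3.77 in HepG2 NC TuD. ITGB5 had 100.3 and 109.6 CPM in SK-Hep1 NC TuD, against 243, 245 and 265 CPM in HepG2 NC TuD, and was lower by -1.26 ± 0.05, the only beta chain that was lower in SK-Hep1. ITGB4 was higher in SK-Hep1 by 1.16 ± 0.08 in miR-17 TuD libraries and by 1.84 ± 0.08 in NC TuD libraries. ITGB8, an activator of latent TGF-beta together with ITGAV, had 448 counts in SK-Hep1 NC TuD and 2 in HepG2 NC TuD, a ratio of 304 with a counting interval of 83.7 to 2520.

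ITGB3, the other well-known partner of ITGAV, had 8.64 and 6.76 CPM in SK-Hep1 NC TuD, against 0.438, 0.239 and 0.655 CPM in HepG2 NC TuD, at 4.07 ± 0.28. An annotated gene on the same strand shares 2266 exon bases with ITGB3. ITGB2 was higher in SK-Hep1 NC TuD by 0.94 ± 0.13. ITGB7 was higher by 1.23 ± 0.35 in NC TuD, but 1569 of its exon bases overlap ZNF740 on the other strand, and in miR-17 TuD its change of 1.07 ± 0.36 became 0.65 without SK-Hep1 miR-17 TuD replicate 2 (adjusted p = 0.217).

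**Figure D4:**
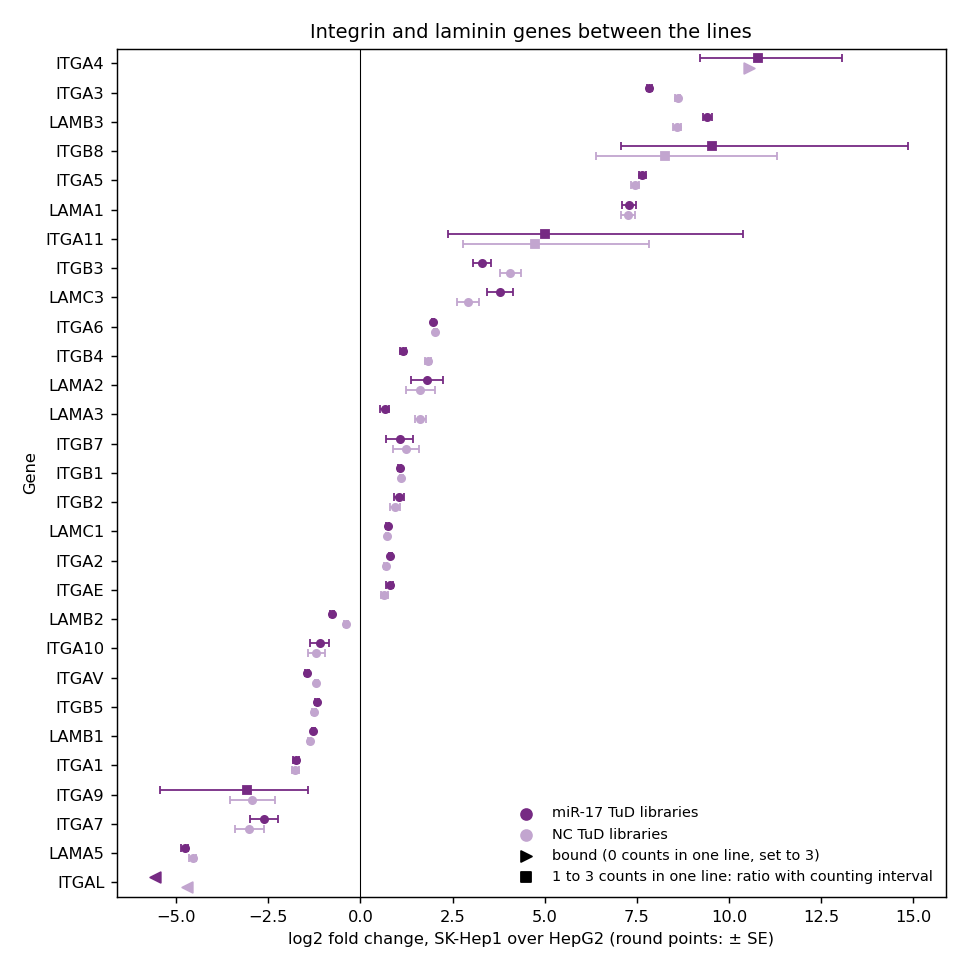
Log2 fold change of SK-Hep1 over HepG2 in miR-17 TuD (dark) and NC TuD (light) libraries for tested genes, with the SE for round points, a counting interval for squares (1 to 3 counts in 1 line) and a bound for triangles (0 counts in 1 line). Each gene shown lies on the same side of 0 in both kinds of library.

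The laminin chains of the lines differed in kind. HepG2 held almost only LAMA5, LAMB1, LAMB2 and LAMC1, while SK-Hep1 held LAMB3 as well and little alpha chain. LAMB3 had 260 and 284 CPM in SK-Hep1 NC TuD, against 0.511, 0.636 and 0.946 CPM in HepG2 NC TuD, at 8.58 ± 0.11. It had passed the count filter through SK-Hep1 only, so no p-value is given for it. LAMA3, its partner alpha chain, had 15.5 and 12.9 CPM in SK-Hep1 NC TuD, against 5.47, 3.10 and 5.10 CPM in HepG2 NC TuD, at 1.62 ± 0.14, and in miR-17 TuD libraries the difference was 0.66 ± 0.13.

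LAMA5 had 33.0 and 29.2 CPM in SK-Hep1 NC TuD, against 721, 666 and 799 CPM in HepG2 NC TuD, at -4.55 ± 0.10 (adjusted p = 2.05e-14). LAMA1, mainly an embryonic chain, had 40.6 and 45.8 CPM in SK-Hep1 NC TuD, against 0.0730, 0.318 and 0.437 CPM in HepG2 NC TuD, at 7.25 ± 0.19. Per length, LAMA1 made up 50.1% to 56.1% of the alpha chain transcript in SK-Hep1 NC TuD, LAMA5 30.1% to 34.3% and LAMA3 11.5% to 13.8%. All alpha chains together came to 8.25 ± 0.0528 CPM per kilobase in SK-Hep1 NC TuD and 62.7 ± 5.79 in HepG2 NC TuD. LAMA2, a muscle chain, was low in both lines, with 46 counts in SK-Hep1 NC TuD and 20 in HepG2 NC TuD.

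Beta chains came to 113 ± 2.66 CPM per kilobase in SK-Hep1 NC TuD and 109.9 ± 2.69 in HepG2 NC TuD, and their makeup differed. LAMB3 made up 49.9% to 52.8% of them in SK-Hep1 NC TuD and 0.101% to 0.179% in HepG2 NC TuD. LAMB1 was lower in SK-Hep1 NC TuD by -1.38 ± 0.04 and LAMB2 by -0.39 ± 0.05. Among gamma chains, LAMC1 had 810 and 824 CPM in SK-Hep1 NC TuD, against 493, 506 and 488 CPM in HepG2 NC TuD, at 0.72 ± 0.04. LAMC3 had 4.36 and 5.19 CPM in SK-Hep1 NC TuD, against 0.292, 0.795 and 0.801 CPM in HepG2 NC TuD, at 2.92 ± 0.29.

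**Figure D5:**
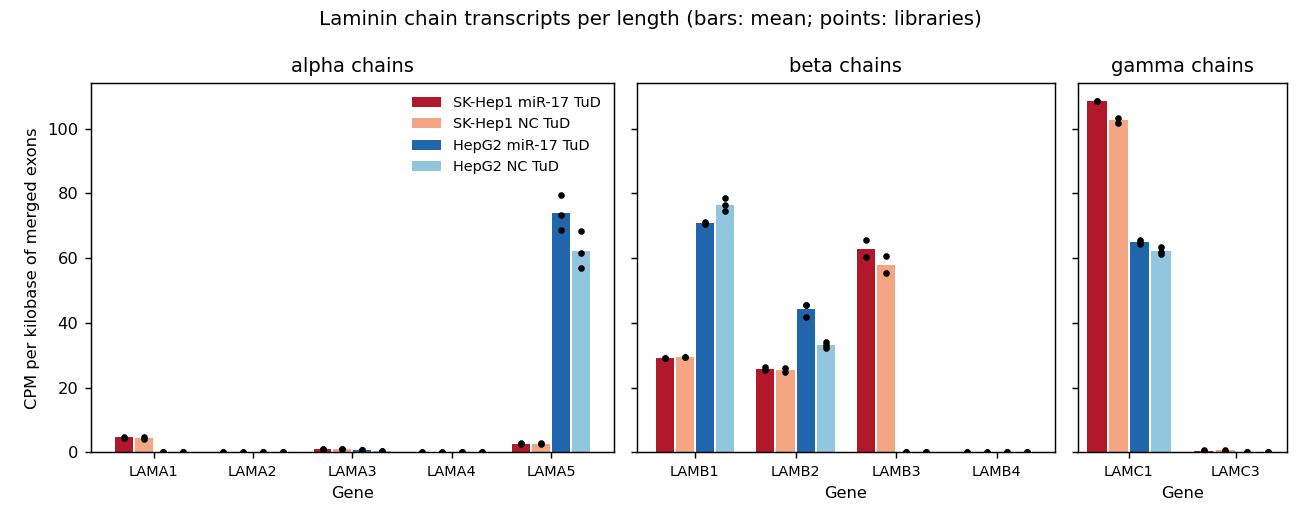
Transcript level per length of laminin chain genes (CPM per kilobase of merged exons), with bars for group means and points for libraries, in the order SK-Hep1 miR-17 TuD, SK-Hep1 NC TuD, HepG2 miR-17 TuD and HepG2 NC TuD. LAMA5 is high in HepG2, LAMB3 is seen in SK-Hep1, and LAMB2 stands higher in HepG2 miR-17 TuD than in HepG2 NC TuD.

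Partner genes from 4 lists were read from the same fit. Of 38 tested genes of the cytoplasmic face of integrin adhesions, 10 were higher and 2 lower in HepG2 miR-17 TuD and 0 were called in SK-Hep1, beside 10.7% and 8.58% of all genes in HepG2 and 0.869% in SK-Hep1. FLNA, an actin crosslinker that binds integrin tails, was higher by 0.31 ± 0.04 in HepG2 miR-17 TuD and VCL (vinculin) by 0.27 ± 0.04, while FERMT2, the integrin activator kindlin-2, was lower by -0.27 ± 0.05. The decoy responses of FLNA and VCL were also smaller in SK-Hep1 than in HepG2. Of the 38, 0 differences were called above 0 and 3 below it, where 1.24% and 2.51% of all genes were. Between the NC TuD lines, 23 were higher and 10 lower in SK-Hep1, beside 43.9% and 42.8% of all genes, with PXN (paxillin) at 2.78 ± 0.05 and SRC at -3.25 ± 0.07.

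Of 19 regulators and membrane partners of integrins, 4 were higher and 2 lower in HepG2 miR-17 TuD and 0 were called in SK-Hep1, beside the same 10.7%, 8.58% and 0.869% of all genes. DST, whose epithelial form links ITGB4 to keratin filaments, was higher by 0.26 ± 0.04 and CD47 by 0.64 ± 0.16, and the tetraspanin CD63 was lower by -0.14 ± 0.04. The DST response differed between the lines by -0.38 ± 0.06 (adjusted p = 4.7e-05), the only called difference of the 19, where 3.75% of all genes were called. Between the NC TuD lines, 13 were higher and 3 lower in SK-Hep1, where 86.7% of all genes were called. CAV1 (caveolin-1) averaged 1288 ± 15.8 CPM in SK-Hep1 NC TuD (SD, n = 2) and 0.433 ± 0.285 CPM in HepG2 NC TuD (SD, n = 3).

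Of 18 tested basement membrane partners and other laminin receptors, 5 were higher and 2 lower in HepG2 miR-17 TuD and 0 were called in SK-Hep1, beside the same 10.7%, 8.58% and 0.869% of all genes. HSPG2 (perlecan) was higher by 0.45 ± 0.04, the netrin NTN4, which binds laminin gamma chains, by 0.57 ± 0.07, and the laminin receptor DAG1 (dystroglycan) by 0.29 ± 0.04. NID1 (nidogen-1), which ties LAMC1 to collagen IV, was lower by -0.35 ± 0.04. All 4 responses differed between the lines, by -0.40, -0.44, -0.34 and 0.33 on the log2 scale for HSPG2, NTN4, DAG1 and NID1. Of the 18, 2 differences were called above 0 and 3 below it, where 1.24% and 2.51% of all genes were. The 4 were named for their calls on these same libraries, so this is no further support. Between the NC TuD lines, 8 were higher and 8 lower, where 86.7% of all genes were called, with the collagen IV gene COL4A2 at 7.71 ± 0.10 and SPARC at 5.72 ± 0.04 in SK-Hep1.

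Of 21 tested integrin ligands other than laminins, 5 were higher and 3 lower in HepG2 miR-17 TuD, where 10.7% and 8.58% of all genes were. CDH1 (E-cadherin), the ligand of ITGAE with ITGB7, was higher by 1.46 ± 0.09, and SPP1 (osteopontin), a ligand of ITGAV receptors, averaged 1736 ± 35.9 CPM in HepG2 miR-17 TuD and 1272 ± 38.3 CPM in HepG2 NC TuD (SD, n = 3 each). In SK-Hep1 1 of the 21 was called, beside 0.869% of all genes. ICAM1, the ligand of ITGAL with ITGB2, averaged 101.0 ± 6.03 CPM in SK-Hep1 miR-17 TuD and 79.5 ± 1.06 CPM in SK-Hep1 NC TuD, at 0.35 ± 0.06 (adjusted p = 0.00016). Between the NC TuD lines, 10 were higher and 11 lower in SK-Hep1, where 86.7% of all genes were called, with THBS1 (thrombospondin-1) at 4.29 ± 0.04 and SPP1 at -5.04 ± 0.05.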

How the data were processed

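Per the labels, libraries were made from 150 ng of total RNA with a kit that does not record strand and read as 50 bp pairs. The authors deposited raw gene counts, 1 file per library, and log2 values of all libraries in 1 matrix. Per the submitters' processing notes STAR, HTSeq 0.5.4p5 and hg19 were used; the series text instead gives Bowtie/TopHat, RSEM and the mouse genome, while the symbols are human. Entries that are no gene were left out: reads outside genes were 11.6% to 14.1%, ambiguous 0.584% to 0.619%, not unique 4.47% to 5.04% and not aligned 2.43% to 2.87%. At this depth 1 count is 0.0657 to 0.0795 CPM after TMM scaling. Count intervals cover counting error only.

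The test was edgeR 4.0.16 (R 4.3.3, filterByExpr by group, TMM scaling, robust quasi-likelihood fit of 4 group means over all 10 libraries). This tested 13349 genes, with two-sided p-values under Benjamini-Hochberg adjustment over all of them and calls below 0.05. The SE is the log2 fold change over the root of F. CPM are TMM-scaled; level per length is CPM per kilobase of merged exons of coding transcripts in GENCODE 29. Positions are on GRCh38, and the counts were made on hg19. Symbols matched directly for 18159 of 19215 genes. Alternatives were DESeq2 1.42.0, other scalings, no filter, fewer libraries, a replicate block and limma 3.58.1 on the deposited log2 values. The fit was tested on simulated data. Members could be named, with up to 4 called genes per partner list with the smallest adjusted p in each comparison. Members and lists were chosen with earlier results of these data known. Some genes and sites that the rules name or count are not reported here.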

Additional observations from a re-analysis of the deposited data

Results flagged for a closer look

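For 5 genes the decoy response differed between SK-Hep1 and HepG2 by the test of the difference itself, with log2 values of -0.96 for LAMA3, -0.78 for ITGA3, -0.68 for ITGB4, -0.39 for LAMB2 and -0.25 for ITGAV (SK-Hep1 response minus HepG2 response, edgeR). In each, all HepG2 miR-17 TuD libraries were above all HepG2 NC TuD libraries, and the SK-Hep1 arms overlapped. The genes were chosen by that test on these same libraries, so this separation is no further support. HepG2 NC TuD held far less ITGA3 than SK-Hep1, so that this response starts at a low level in HepG2. Groups of 2 or 3 libraries were too small for a search for outlying libraries.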

How the results depend on the processing

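Under the 13 alternatives to the HepG2 comparison, ITGA3, ITGAV, ITGB4, LAMA3 and LAMB2 kept their calls. No called value changed sign in any comparison. The 9 calls in HepG2 became 7 to 9 when 1 library was left out, and 6 with limma on the deposited log2 values. With limma ITGAL (adjusted p = 0.0574), ITGB1 (adjusted p = 0.0513) and LAMA5 (adjusted p = 0.0545) were lost. Of all genes, 13.4% to 20.2% were called in HepG2 without 1 library and 12.6% with limma, against 19.3% in the main fit. The 0 calls in SK-Hep1 became 5 on its 4 libraries alone. Counts of calls without 1 SK-Hep1 library are not given, since 1 library is then left in its group. The 5 differences between the responses stayed 5 without any 1 HepG2 library. They became 2 with limma, where ITGA3 (adjusted p = 0.132), LAMA3 (adjusted p = 0.0896) and ITGAV (adjusted p = 0.0505) were lost. Without SK-Hep1 NC TuD replicate 1 or without SK-Hep1 miR-17 TuD replicate 2 the ITGAV difference was -0.23. Of all genes, 2.32% to 4.60% had a called difference of responses without 1 HepG2 library and 2.75% with limma, against 3.75% in the main fit. The fit on the 4 SK-Hep1 libraries alone called 2.26% of all genes. The cause of these changes was not tested. DESeq2 gave no adjusted p for the LAMA3 difference. Between the lines, all 30 genes kept their calls without any 1 HepG2 library. Same-numbered replicates did not deviate together in HepG2 (correlations of 0.0729, -0.421 and -0.388), so the numbers were not taken as pairs. Some HepG2 libraries of unlike number did, at 0.469 for miR-17 TuD replicate 3 with NC TuD replicate 2. For miR-17 TuD replicate 2 with NC TuD replicate 3 the correlation was 0.372. A factor shared by such libraries was not tested. In SK-Hep1 the value was -0.0905, but 2 libraries of an arm deviate as mirror images, so it tells little about pairing. A fit with a replicate block called 7, 0, 4, 30 and 30 genes in the HepG2, SK-Hep1, difference, NC TuD line and miR-17 TuD line comparisons. In the same order it called 14.0%, 0.434%, 1.70%, 85.2% and 85.9% of all genes. It lost ITGB1 (adjusted p = 0.0646) and LAMB1 (adjusted p = 0.0864) in HepG2 and the ITGAV difference (adjusted p = 0.0912). Without 1 HepG2 library, 85.2% to 86.6% of all genes were called between the lines. Levels per length by the longest transcript, an alternative chosen after seeing the data, put LAMB2 at 34.1% to 36.3% of beta chain transcript in HepG2 miR-17 TuD and 27.2% to 28.3% in HepG2 NC TuD.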
